A study of Homo sapiens with 12 samples.

Results

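KLK2, KLK3 and KLK4 are secreted serine proteases of the kallikrein family that are made by the luminal epithelium of the prostate. The 3 genes were chosen by symbol from 14812 genes that could be named on the arrays, and each was read by 1 transcript cluster, the summarised signal of all probes for a gene (16864628 for KLK2, 16864616 for KLK3 and 16874672 for KLK4). Human Gene 2.0 ST arrays (Affymetrix) read the RNA of LNCaP, a prostate cancer line that responds to androgen and secretes prostate-specific antigen. All cells had been infected with a control plasmid (MSCV-LMP) and were treated before full confluence for 16 h. The groups were 1 nM cabazitaxel, 1 nM docetaxel and vehicle (ethanol) in full serum, and the same treatments in charcoal dextran treated serum, with 2 arrays in each of the 6 groups. Every value comes from 1 cell line, and no label says that replicates were grown apart, so every p-value here reflects the spread among these arrays, which may be technical.

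Charcoal treatment removes much of the steroid from serum, so the pair of sera differ in androgen supply among other things. Androgen drives transcription of the kallikreins through androgen response elements in their promoters and enhancers, and KLK3 is a textbook reporter of that pathway. KLK3 encodes prostate-specific antigen, which liquefies the seminal coagulum by cutting semenogelins. KLK2 encodes a trypsin-like protease that can activate the KLK3 zymogen in vitro, and KLK4 encodes a further trypsin-like protease that is also needed for the maturation of tooth enamel. Cabazitaxel and docetaxel are taxanes, which stabilise microtubules, and cabazitaxel carries methoxy groups where docetaxel has hydroxyl groups.

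The stretch of 250 bases before the annotated start of each gene is shown because it holds the proximal promoter, which in KLK3 and KLK2 is known to hold an androgen response element. The sequences are those of RefSeq on GRCh38.p14, written 5′ to 3′ on the strand of the gene, and capitals mark matches to a loose androgen response element, which is GNACA, any 4 bases and GTNC (N is any base), searched on both strands. KLK3 is read from the plus strand of chr19:50854665-50854914, KLK2 from the plus strand of chr19:50873189-50873438 and KLK4 from the minus strand of chr19:50911396-50911645.
KLK3: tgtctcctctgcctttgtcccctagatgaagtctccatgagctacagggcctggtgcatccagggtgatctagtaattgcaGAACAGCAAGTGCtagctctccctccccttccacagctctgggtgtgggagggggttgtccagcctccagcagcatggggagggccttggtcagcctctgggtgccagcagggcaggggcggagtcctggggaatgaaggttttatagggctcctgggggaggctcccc
KLK2: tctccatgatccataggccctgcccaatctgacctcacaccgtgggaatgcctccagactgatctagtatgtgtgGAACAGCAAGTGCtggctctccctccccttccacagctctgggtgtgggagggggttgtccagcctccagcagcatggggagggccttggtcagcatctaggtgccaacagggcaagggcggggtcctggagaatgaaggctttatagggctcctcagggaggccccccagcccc
KLK4: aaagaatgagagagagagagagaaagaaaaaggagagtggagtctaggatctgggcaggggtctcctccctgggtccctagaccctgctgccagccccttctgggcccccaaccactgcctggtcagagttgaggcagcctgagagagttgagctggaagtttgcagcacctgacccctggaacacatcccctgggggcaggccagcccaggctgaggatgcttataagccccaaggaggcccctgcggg

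The KLK3 and KLK2 windows each held 1 match with the same letters, GAACAGCAAGTGC, which lay 169 to 157 bases before the start in KLK3 and 175 to 163 bases before it in KLK2. Neither the KLK4 window shown nor that of its other annotated start (chr19:50910739-50910988) held one. Across all 35116 windows of this length in the RefSeq table, 1.81% held the element. The shorter element AGAACA, which overlaps the longer one, was matched in the KLK3 window only and in 12.4% of all windows, and the perfect palindrome, which is AGAACA, any 3 bases and TGTTCT, was matched in none of the 4 kallikrein windows. Aligned over their whole length, the KLK3 and KLK2 windows shared 211 of 250 bases (84.4%), while each of them shared 56.4% to 58.4% with the KLK4 windows. The KLK4 windows of the different starts shared 54.4% with each other under the same alignment. A match describes the letters of these windows and does not show that a factor was bound. KLK2 and KLK3 are close paralogs, and the probe sequences were not analysed here, so how far the signal of one reaches the other's probes was not tested.

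The arrays as a whole were alike, with medians between 22.19 and 22.43 intensity units, and replicates of a group correlated across genes with r from 0.9863 to 0.9922. The deposited values are on a linear scale with a floor near 17.3, which compresses changes of weak genes. Of 7 luminal prostate markers with a tested transcript cluster, FOLH1, the prostate-specific membrane antigen gene, had 763 to 1421 units, the keratin gene KRT18 had 222 to 288, and the lineage factor genes HOXB13 and FOXA1 had 86.0 to 120 and 89.6 to 101. The remaining luminal markers EPCAM, STEAP1 and KRT8 had 202 to 258, 65.0 to 133 and 42.7 to 64.4 units. Of 5 named basal markers, KRT5 and CD44 reached at most 21.0 and 20.6 units and NGFR was the highest at 27.2 to 33.9. Of 5 named fibroblast markers, LUM reached at most 21.8 units and VIM had 28.9 to 39.1, while FN1, which is not particular to fibroblasts, had 393 to 689.

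All 3 kallikreins were higher in full serum than in charcoal serum under every treatment, most for KLK2, less for KLK3 and least for KLK4. KLK2 had 264 and 285 intensity units with cabazitaxel, 261 and 324 with docetaxel and 291 and 364 with vehicle in full serum. Its values in charcoal serum were 117 and 92.0 with cabazitaxel, 117 and 105 with docetaxel and 119 and 94.0 with vehicle. The lowest full-serum array of KLK2 was thus 2.18 times the highest charcoal-serum array, and the sera did not overlap.

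KLK3 had 1110 and 1205 units with cabazitaxel, 1145 and 1140 with docetaxel and 1211 and 1466 with vehicle in full serum. In charcoal serum it had 737 and 478 with cabazitaxel, 687 and 604 with docetaxel and 681 and 556 with vehicle. The sera did not overlap here either, with the lowest full-serum array at 1.51 times the highest charcoal-serum array. The charcoal cabazitaxel pair was the widest of any member, its higher array standing at 1.54 times its lower one.

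KLK4 had 316 and 353 units with cabazitaxel, 355 and 311 with docetaxel and 321 and 331 with vehicle in full serum. In charcoal serum it had 273 and 244 with cabazitaxel, 262 and 241 with docetaxel and 253 and 246 with vehicle. The sera were again apart, but narrowly, with 1.14-fold between the nearest arrays.

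**Figure D1:**
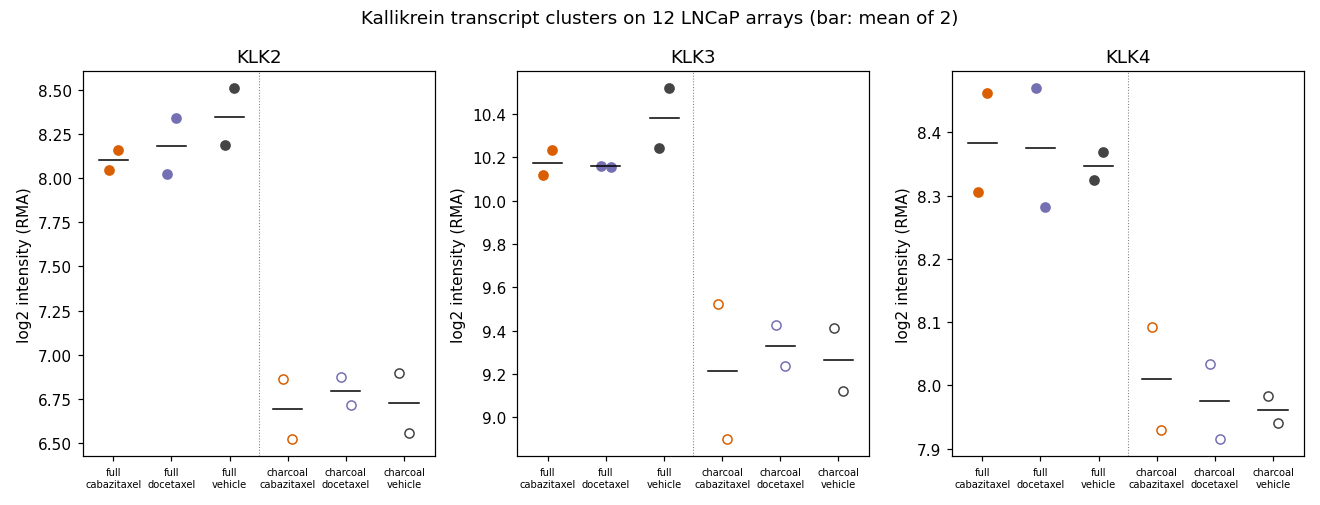
Log2 RMA intensity of KLK2, KLK3 and KLK4 (y axis, a scale of its own for each gene) on each of the 12 arrays, with full-serum groups left and charcoal-serum groups right. Points are arrays, filled for full serum and open for charcoal serum, and bars are means of 2; in each panel the 6 full-serum points lie above the 6 charcoal-serum points.

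The serum comparison was tested with limma over 11105 genes, and a gene was called at a Benjamini-Hochberg adjusted p under 0.05. As the mean of the 3 treatments, KLK2 rose 2.77-fold in full serum, with a log2 intensity of 8.21 ± 0.18 in full and 6.74 ± 0.17 in charcoal serum (SD, n = 6 arrays each) and a difference of 1.47 (SE 0.092, limma adjusted p = 8.18e-06). KLK3 rose 1.96-fold, with 10.24 ± 0.15 in full and 9.27 ± 0.23 in charcoal serum (SD, n = 6 arrays each) and a difference of 0.97 (SE 0.10, limma adjusted p = 0.000368). KLK4 rose 1.31-fold, with 8.37 ± 0.080 in full and 7.98 ± 0.069 in charcoal serum (SD, n = 6 arrays each) and a difference of 0.39 (SE 0.054, limma adjusted p = 0.00282). By size of the rise KLK2 was number 2, KLK3 number 4 and KLK4 number 52 of the 11105 genes.

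All 3 kallikreins were called higher, where 1.1% of all tested genes were called higher and 2.31% in either direction, and the 6 full-serum arrays of all 3 lay above the 6 charcoal-serum arrays, as they did for 1.23% of tested genes. The 3 were singled out with earlier results of these arrays known, so their counts describe them and are not independent evidence. In these bulk samples a change in RNA per cell and a change in the share of cells that make a transcript cannot be told apart. With an assumed constant offset of 16 units subtracted before the logarithm, the folds became 3.09 for KLK2, 1.98 for KLK3 and 1.33 for KLK4, and all 3 remained called.

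Within a single treatment, where 2 arrays stood against 2, KLK2 passed each time, KLK3 passed with vehicle and cabazitaxel, and KLK4 did not pass. With vehicle, KLK2 rose by 1.62 on the log2 scale (95% confidence interval 1.27 to 1.97, limma adjusted p = 0.00142) and KLK3 by 1.11 (SE 0.18, limma adjusted p = 0.0231). KLK4 stood at 0.39 (0.18 to 0.59, limma adjusted p = 0.152). Of all genes tested in vehicle-treated cells, 0.225% were called higher.

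With cabazitaxel, KLK2 rose by 1.41 (1.06 to 1.76, limma adjusted p = 0.0029) and KLK3 by 0.96 (0.58 to 1.35, limma adjusted p = 0.0475), where 0.261% of tested genes were called higher, and KLK4 stood at 0.37 (0.17 to 0.58, limma adjusted p = 0.25). With docetaxel, KLK2 rose by 1.39 (1.04 to 1.74, limma adjusted p = 0.00333), where 0.162% of tested genes were called higher. KLK3 stood at 0.83 (0.44 to 1.21, limma adjusted p = 0.108) and KLK4 at 0.40 (0.20 to 0.61, limma adjusted p = 0.141). The 3 differences of each gene had intervals that overlapped widely.

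The KLK3 calls were close to the threshold. With vehicle, KLK3 lost its call without charcoal vehicle replicate 1 or 2, full vehicle replicate 2, or either full docetaxel array (adjusted p from 0.0509 to 0.188 in limma). With cabazitaxel it kept its call in 1 of 12 such fits, that without charcoal cabazitaxel replicate 1, where the difference was 1.28, and it stood at 0.65 without charcoal cabazitaxel replicate 2. KLK2 lost its call with cabazitaxel without full cabazitaxel replicate 2 (limma adjusted p = 0.0678), and with docetaxel without charcoal docetaxel replicate 2 (0.0566) or full docetaxel replicate 2 (0.0744). KLK3 with docetaxel passed without either charcoal cabazitaxel array (0.83, limma adjusted p = 0.018).

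**Figure D2:**
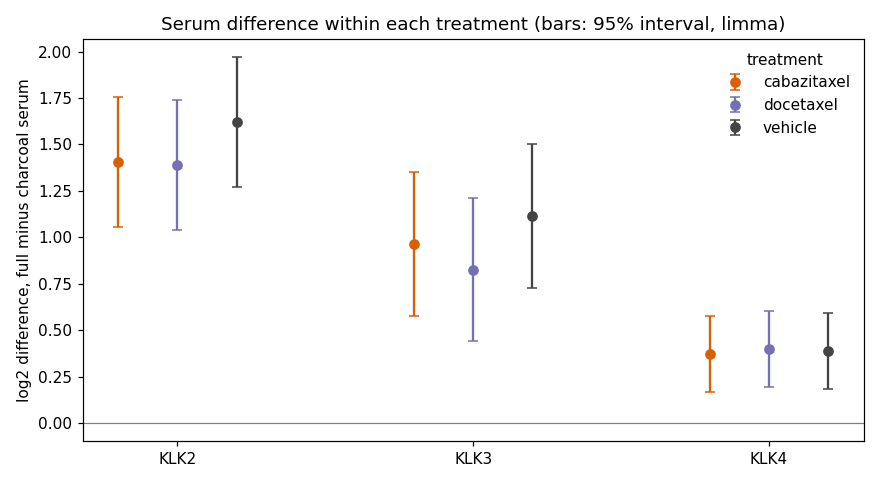
Log2 difference of full minus charcoal serum (y axis) for each gene within cabazitaxel, docetaxel and vehicle. Points are limma estimates from 2 arrays against 2 and bars are 95% confidence intervals; KLK2 lies at 1.39 to 1.62, KLK3 at 0.83 to 1.11 and KLK4 at 0.37 to 0.40, with all intervals above 0.

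Whether serum moved the 3 genes by different amounts was tested on the within-array difference between pairs of them, which cancels a shift common to an array. KLK2 exceeded KLK3 in its log2 serum difference by 0.50, with 0.44 under cabazitaxel, 0.56 under docetaxel and 0.51 under vehicle. KLK2 exceeded KLK4 by 1.08 and KLK3 exceeded KLK4 by 0.58. In each pair the 6 full-serum and 6 charcoal-serum arrays did not overlap. The share of all gene pairs that separate in this way was not counted, so this is not shown to be particular to kallikreins. The two-sided exact permutation test within treatments gave p = 0.00926 for each of the 3 pairs (0.00926 adjusted over the 3). That is the smallest p that its 216 arrangements allow, so it does not grade the pairs. The 3 genes were singled out with earlier results of these arrays known. These p-values thus describe the pairs and are not independent evidence of their order. The 3 pairs share their genes, so their results are not independent, and other gene pairs were not tested. The order KLK2, KLK3, KLK4 held under all 3 treatments. With the offset of 16 subtracted, the gaps were 0.64, 1.22 and 0.58, so both KLK2 gaps were larger on that scale.

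**Figure D3:**
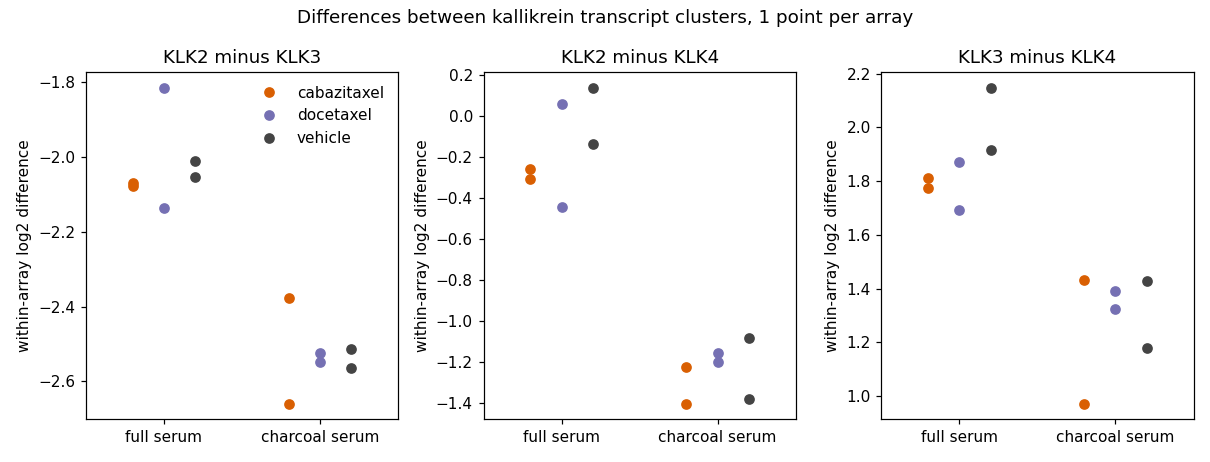
Within-array log2 difference between pairs of kallikreins (y axis) by serum, 1 point per array, coloured by treatment. In each of the 3 panels the 6 full-serum points lie above the 6 charcoal-serum points, which means a larger serum difference for the gene named first.

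The rest of the family gave low values. The kallikreins lie side by side on chromosome 19, in the RefSeq order KLK1, KLK15, KLK3, KLK2, the pseudogene KLKP1, KLK4, and then KLK5 to KLK14. All 13 others had low values, between 18.9 and 39.2 units over the 12 arrays, and 11 of them passed the filter on low values. Limma called 0 of the 11 between the sera, with differences from -0.09 for KLK5 to 0.11 for KLKP1 and a lowest adjusted p of 0.623. At the 2.31% of all tested genes that were called, 11 genes would seldom hold a call. In sign, 6 of 11 were above 0 (median 0.018, against -0.0014 over all tested genes). KLKP1, which sits between KLK2 and KLK4, had 28.3 to 38.6 units in full and 25.5 to 33.0 units in charcoal serum, so its arrays overlapped (0.11, limma adjusted p = 0.64). Values this near the floor compress any change, so a difference was not detectable rather than shown to be absent.

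**Figure D4:**
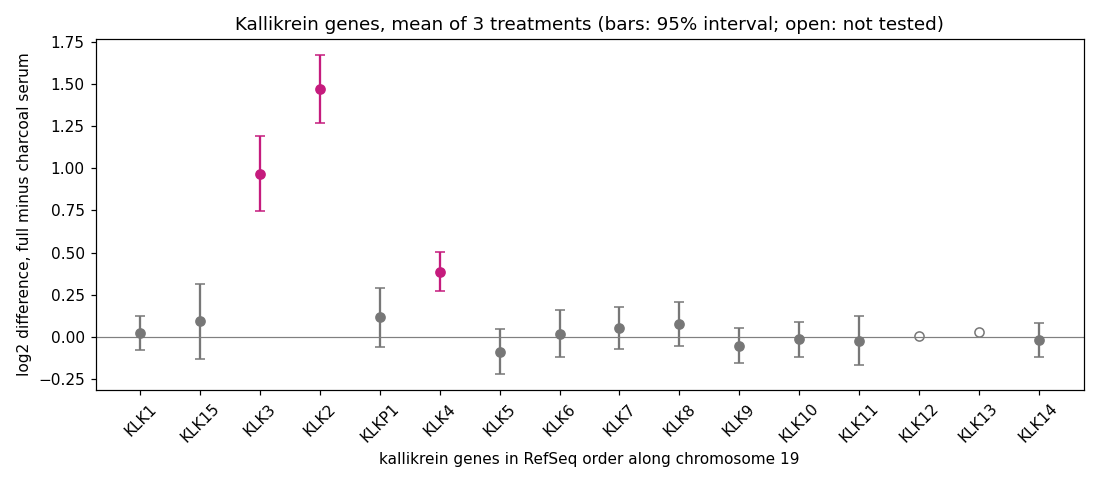
Log2 difference of full minus charcoal serum as the mean of 3 treatments (y axis) for 16 kallikrein genes in their RefSeq order (x axis), with 95% confidence intervals of limma. KLK3 (0.97), KLK2 (1.47) and KLK4 (0.39) are coloured and stand above 0; the 13 others lie between -0.09 and 0.11, and the open points, KLK12 and KLK13, were not tested.

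Genes for proteins that act on or with the kallikreins were few on the table. The inhibitor genes A2M and PZP, the ones of 11 listed that could be named, stayed under 21.0 units and were not tested. Of 22 listed substrates and receptors 9 were tested, and limma called 0 between the sera (median 0.0083), where 2.31% of all tested genes were called, so lists this small would hold few calls or none at that share. Fibronectin (FN1), a matrix protein that KLK3 can cut and also a fibroblast marker, stood at 0.34 (SE 0.088, limma adjusted p = 0.0838), and the membrane protease gene ST14 at 0.22 (SE 0.064, limma adjusted p = 0.117). The 3 fibroblast, 3 basal, 3 neuroendocrine and 7 luminal markers tested also gave 0 calls between the sera, and the same limit holds for them, with list medians of 0.058, 0.065, 0.034 and -0.032.

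Of 18 genes of steroid synthesis and breakdown 3 were tested and 0 called, with HSD17B4 at 0.13 (limma adjusted p = 0.13).

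Many other targets of androgen were called in the same comparison. Of 46 listed androgen-induced genes outside the family, 26 were tested. Of these 26, 17 were called higher and 0 lower in full serum, with a median of 0.38. Among all tested genes 1.1% were called higher and the median was -0.0014. TARP stood at 1.94, HERC3 at 0.97, CENPN at 0.94 and STK39 at 0.91 (limma adjusted p of 1.85e-06 or less for these 4). Of 17 listed androgen-repressed genes, 9 were tested. Of these 9, 4 were called lower and 0 higher, where 1.21% of all tested genes were called lower. Their median was -0.22, and the called genes were the chemokine receptor gene ACKR3 (-0.58), the CaM kinase inhibitor gene CAMK2N1 (-0.35), the decarboxylase gene DDC (-0.33) and SI (-0.27). Both lists hold genes that earlier results of these arrays had already shown to move. Their directions, shares called and medians are thus not independent evidence. KLK4, at 0.39, lay near the median of the induced list, while KLK2 lay above all of its members but TARP.

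The genes most like each kallikrein were taken as the 5 with the highest Pearson correlation of log2 values over the 12 arrays. These correlations are carried largely by the step between the sera, and arrays of a group share their treatment. For KLK2 they were ABHD2 (r = 0.984), KLK3 (0.980), HERC3 (0.975), ELOVL5 (0.975) and STK39 (0.972). For KLK3 they were KLK2, ELOVL5 (0.974), ABHD2 (0.971), HPGD (0.967) and HOMER2 (0.949). For KLK4 they were ELOVL5 (0.968), SNAI2 (0.958), UAP1 (0.947), ENDOD1 (0.944) and CENPN (0.9420). KLK3 (0.9416) fell just outside these 5, and KLK2 had 0.931.

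Within a serum, where the step is absent, KLK2 and KLK3 still varied together, with r = 0.795 over the 6 full-serum and 0.944 over the 6 charcoal-serum arrays. Of the genes listed above, ABHD2, a lipase gene, had r = 0.888 and 0.695 with KLK2, and ELOVL5, a fatty acid elongase gene, had 0.766 and 0.788 with KLK3. Others did not keep their likeness: HERC3 had 0.313 and 0.404 and STK39 had 0.281 and 0.319 with KLK2, HOMER2 had -0.513 and 0.767 with KLK3, and UAP1 had 0.652 and -0.511 with KLK4. KLK4 correlated with KLK2 at -0.315 in full and 0.723 in charcoal serum, and with KLK3 at 0.118 and 0.801. In charcoal serum replicate 1 was above replicate 2 for all 3 genes under all 3 treatments, by 0.043 to 0.62 on the log2 scale. That shared step enters the charcoal-serum correlations. The share of all tested genes with correlations this high was not counted, and signal shared between KLK2 and KLK3 probes was not tested. In full serum replicate 1 was below replicate 2 in all 3 groups for KLK2, and in 2 of the 3 groups for KLK3 and KLK4.

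Each taxane was next compared with vehicle, the comparison that the series was designed for. No kallikrein passed with either drug. As the mean of both sera, the log2 difference of cabazitaxel from vehicle was -0.14 for KLK2 (-0.39 to 0.11), -0.13 for KLK3 (-0.40 to 0.14) and 0.04 for KLK4 (-0.10 to 0.19), with limma adjusted p of 1.00 for all 3 and unadjusted p of 0.242, 0.322 and 0.524. For docetaxel it was -0.05 for KLK2 (-0.30 to 0.20), -0.08 for KLK3 (-0.35 to 0.20) and 0.02 for KLK4 (-0.12 to 0.17), with limma adjusted p from 0.944 to 0.975. Both drugs were set against the same vehicle arrays, so their values are not independent. Limma called 0% of the 11105 genes in each of these comparisons. An unadjusted p under 0.05 was found for 520 genes (cabazitaxel) and 672 genes (docetaxel). Even with no difference, a share of about 0.05 of genes falls under that threshold. Counts of this kind, here and below, thus do not show that any gene moved. The intervals leave room for a change of up to about 0.40 downward in KLK3 and bound KLK4 within 0.19 in either direction.

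In full serum, the KLK2 and KLK3 means were lower with each drug than with vehicle. KLK2 differed by -0.25 with cabazitaxel (-0.60 to 0.10) and by -0.16 with docetaxel (-0.51 to 0.19). KLK3 differed by -0.20 (-0.59 to 0.18) and by -0.22 (-0.61 to 0.17), and its 4 taxane arrays, at 1110 to 1205 units, all lay below its vehicle arrays at 1211 and 1466. Vehicle arrays stood above all taxane arrays of full serum in 5.32% of tested genes. KLK4 differed by 0.04 (-0.17 to 0.24) and 0.03 (-0.18 to 0.23). Limma gave an adjusted p of 0.999 for all 6. The KLK2 and KLK3 values rested on few arrays: without full vehicle replicate 1 and without full vehicle replicate 2, cabazitaxel stood at -0.41 and -0.085 for KLK2 and at -0.34 and -0.066 for KLK3. Docetaxel stood at -0.32 and -0.0043 for KLK2 and at -0.36 and -0.084 for KLK3 in the same fits. Docetaxel for KLK2 also stood at -0.0073 without full docetaxel replicate 1 and at -0.32 without full docetaxel replicate 2. Set against the vehicle array of its own replicate number, each of the 4 drug arrays was lower for KLK2 and for KLK3. The 4 comparisons reuse the same vehicle arrays, and for KLK3 the result follows from the gap given above. The share of all tested genes with this pattern was not counted, and the numbers were not shown to pair arrays.

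In charcoal serum, the differences with cabazitaxel were -0.03 for KLK2, -0.05 for KLK3 and 0.05 for KLK4, and those with docetaxel were 0.07, 0.07 and 0.01 (limma adjusted p from 0.987 to 1.00). The drug and vehicle arrays overlapped for all 3 genes. KLK3 under cabazitaxel was set by its wide pair, and stood at -0.37 without charcoal cabazitaxel replicate 1 and at 0.26 without replicate 2. The level of KLK2 in charcoal serum was highest with docetaxel, then vehicle, then cabazitaxel (6.80 ± 0.11, 6.73 ± 0.24 and 6.69 ± 0.24 on the log2 scale, SD, n = 2 each), and neighbours in that order differed by less than their spread. KLK3 had the same order there, while KLK4 was highest with cabazitaxel and lowest with vehicle in both sera, by steps of at most 0.04.

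**Figure D5:**
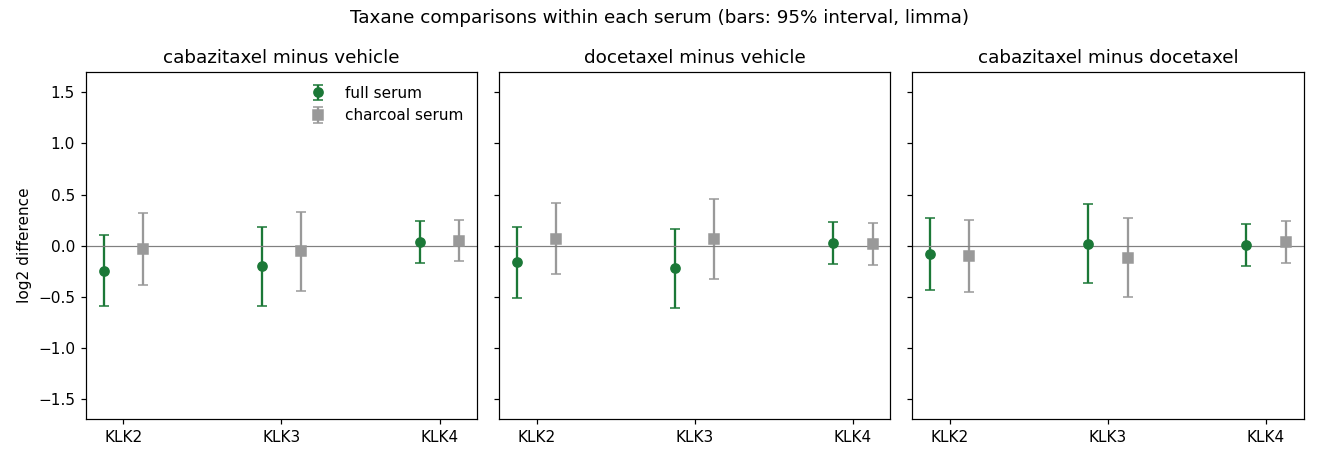
Log2 differences (y axis) of cabazitaxel minus vehicle, docetaxel minus vehicle and cabazitaxel minus docetaxel for each gene, in full serum (circles) and charcoal serum (squares), with 95% confidence intervals of limma. All 18 intervals include 0, and those of KLK4 are the narrowest in each panel.

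The 2 taxanes were compared with each other as 1 pair of related compounds, both at 1 nM and 16 h. As the mean of both sera, cabazitaxel minus docetaxel was -0.09 for KLK2 (-0.34 to 0.16), -0.05 for KLK3 (-0.32 to 0.22) and 0.02 for KLK4 (-0.12 to 0.17), with limma adjusted p from 0.96 to 0.979. Within full serum the differences were -0.08, 0.02 and 0.01, and within charcoal serum -0.10, -0.12 and 0.04, and none was called. Limma called 0% of all genes in this comparison, and 506 had an unadjusted p under 0.05. A p that misses the threshold does not show that the drugs act alike, and the KLK2 intervals reach -0.34 as the mean of both sera, -0.43 in full serum and -0.45 in charcoal serum.

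Finally, the serum difference under each drug was set against that under vehicle. Under cabazitaxel minus under vehicle it was -0.21 for KLK2 (-0.71 to 0.28), -0.15 for KLK3 (-0.70 to 0.40) and -0.01 for KLK4 (-0.30 to 0.28). Under docetaxel minus under vehicle it was -0.23 for KLK2 (-0.73 to 0.26), -0.29 for KLK3 (-0.83 to 0.26) and 0.02 for KLK4 (-0.27 to 0.30). Limma gave an adjusted p of 0.999 for all 6 and called 0% of all genes, with 380 and 401 at an unadjusted p under 0.05. Under cabazitaxel minus under docetaxel it was 0.02, 0.14 and -0.03 for KLK2, KLK3 and KLK4 (limma adjusted p = 1.00 for all 3). Without charcoal cabazitaxel replicate 1 the KLK3 value under cabazitaxel minus under vehicle turned to 0.16, and without charcoal cabazitaxel replicate 2 it was -0.46. Over all 12 fits that left out an array, the KLK2 value ran from -0.38 to -0.041 with cabazitaxel and from -0.40 to -0.061 with docetaxel, and the KLK3 value from -0.43 to -0.14 with docetaxel. With all 12 arrays, every interval of these comparisons included 0. The comparisons with vehicle rest on the same vehicle arrays.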

How the data were processed

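The authors deposited linear array intensities, normalised by RMA and filtered for low expression per the design text of the series and the submitters' processing notes. The version and threshold, and whether the deposited table is the filtered one, are not given in the sources used here. RNA was amplified before labelling, per the labels' protocols. Values ran from 17.32 to 6307, and log2 was taken of the deposited intensity. Of 44629 transcript clusters, 15835 carried 1 gene symbol, and the one with the highest mean stood for each of 14812 genes. A gene was tested if 2 or more arrays exceeded the overall median, which left 11105 genes, all 3 kallikreins among them.

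The 16 comparisons came from 1 limma fit (version 3.58.1, R version 4.3.3) of 6 group means to all 12 arrays, with 6 residual and 5.08 prior degrees of freedom. P-values are two-sided, the Benjamini-Hochberg adjustment runs over all tested genes of a comparison, intervals are 95%, and the script was tested on simulated data. The number of arrays limits the precision.

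Named are the 3 kallikreins, the 5 genes most correlated with each, the other kallikreins, and per gene list up to 4 called members or 2 others; a few markers beyond that rule were chosen after their values were seen. Members, lists and tests were chosen with earlier results of these data known, and 1 of the lists is not reported here. Symbols were updated through RefSeq, and promoter windows were matched by symbol for all 3 genes (4 windows).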

Additional observations from a re-analysis of the deposited data

How the results depend on the processing

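As the mean of 3 treatments, the serum rises of KLK2 (1.41 to 1.63), KLK3 (0.86 to 1.07) and KLK4 (0.36 to 0.42) kept their call in all 18 alternatives each. Of these 18, 12 left out a single array. The methods' t-test and the fit of only the groups compared were not run for this mean. The comparisons between pairs of kallikreins kept their calls in all alternatives that were run. The alternatives gave 372 values for a taxane minus vehicle in the 3 genes, of which 0 were called and 4 had an unadjusted p under 0.05. Each fit gave several of these values, so they are not 372 separate trials. Within 1 treatment, KLK3 lost its call with vehicle (1.11) and cabazitaxel (0.96) without the filter (limma adjusted p = 0.075 and 0.179), with all transcript clusters (0.0538 and 0.108), with only the groups compared (0.101 and 0.303) and with the offset of 16 subtracted (1.13 and 0.98, adjusted p = 0.0985 and 0.207). Quantile normalization ended the cabazitaxel call (0.957, adjusted p = 0.0555). With only the groups compared, KLK2 with vehicle (1.62) had an adjusted p of 0.0912, and KLK3 with docetaxel (0.83) passed at 0.041. The methods' t-test left no kallikrein call after adjustment (KLK2 at 1.62, 1.41 and 1.39 and KLK3 at 1.11 and 0.96), and passed 621, 618 and 778 genes between the sera with vehicle, cabazitaxel and docetaxel before adjustment but 0, 2 and 0 after it. Without single arrays the difference ranged from 0.967 to 1.26 (KLK3, vehicle), 0.651 to 1.28 (KLK3, cabazitaxel), 0.734 to 0.919 (KLK3, docetaxel), 1.24 to 1.58 (KLK2, cabazitaxel) and 1.23 to 1.54 (KLK2, docetaxel). The cause was not tested.

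Genes called between the sera numbered 256 for the mean, against 132 with the offset and 149 to 248 without single arrays. With vehicle there were 44, against 16 (offset), 1 (only the groups compared) and 7 to 46 (single arrays left out). With cabazitaxel there were 44, against 10, 7 and 9 to 43, and 25 without the filter. With docetaxel there were 35, against 9, 12 and 7 to 39, 22 without the filter and 59 with all transcript clusters. All transcript clusters gave 1 call, against 0, for cabazitaxel minus docetaxel in charcoal serum and for its interaction with serum.

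Deviations of same-numbered arrays correlated from -0.049 to 0.326 over 15 pairs of groups, above 0.1 in 10, and from 0.202 to 0.326 within charcoal serum. Since 5 pairs were not above 0.1, a cut chosen here, the numbers were not taken to pair the arrays. Even so, those within charcoal serum deviated together. Full vehicle also deviated with the charcoal groups, at 0.268 (cabazitaxel), 0.249 (docetaxel) and 0.242 (vehicle). With the replicate block, KLK2, KLK3 and KLK4 had serum means of 1.47, 0.97 and 0.39 (limma adjusted p = 6.15e-06, 0.000209 and 0.00187), no kallikrein call changed, and 70 (vehicle) and 62 (docetaxel) genes were called. With a replicate block within serum, chosen after seeing the data, no kallikrein call changed, but KLK2 with cabazitaxel minus vehicle in full serum (-0.25) had an SE of 0.085 and an unadjusted p under 0.05 (limma adjusted p = 0.781), against an SE of 0.16 without the block. A second transcript cluster was not run, since each kallikrein had 1.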
